A study of Mus musculus with 62 samples.

Results

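The 9 genes described here, Dysf, Myof, Trim72, Cav3, Dmd, Utrn, Dag1, Sgca and Sgcb, encode proteins that reseal or anchor the muscle cell membrane. They were chosen by symbol, with earlier results of these libraries known, and the choice rested on 1 measured difference, that of Dysf between genotypes on the high-fructose diet. They are 9 of 29239 symbols in the table of mice fed chow, of 21886 in the table of the stress experiments, of 20956 in the table of virus-injected muscle and of 17898 in the table of cultured cells, and all 9 are present in all 4 tables. RNA-seq was performed on 62 libraries in 14 groups to ask what loss or excess of ChREBP, a transcription factor that responds to glucose and is encoded by Mlxipl, does in mouse muscle. F/F mice carry a floxed ChREBP gene without Cre, and their ChMKO littermates carry it with Cre under the MCK promoter, which removes exon 8 in skeletal muscle and also acts in the heart. Because only ChMKO mice carry Cre, the transgene and the loss of the exon cannot be told apart in these groups.

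Mice were male and 8 to 10 weeks old when experiments started. Gastrocnemius (GC) and soleus (SOL) of untreated mice on chow gave 5 libraries per muscle and genotype. A second experiment on GC had 4 libraries per genotype in normoxia (Norm), after 2 weeks in a chamber that mimics an altitude of 5500 m (Hypo), and after 3 months on a high-fructose diet (HFrD) with 68% of calories from fructose. In the third, GC of C57BL6/J mice was injected with AAV9 that carries ChREBP or, in AAV-CON, GFP under the CMV promoter, and was collected 14 days later (5 libraries per group). In the fourth, C2C12 cells, a mouse myoblast line, had been transduced with ChREBP (OE) or an empty vector (CON), selected with puromycin and differentiated to day 7 (4 libraries per group). The study's methods call the libraries of a group independent biological replicates, and the labels do not add what separates those of the C2C12 cells. Values are FPKM, fragments scaled by transcript length and by library total, so levels of genes within a table are per length, although in the stress table the order of the genes also moved with the library set described further on. The 4 tables were normalized separately and are tested only within themselves.

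The muscle membrane is torn during contraction and is resealed by vesicles that fuse at the wound. Dysferlin (Dysf) is a calcium-binding protein of these vesicles, myoferlin (Myof) is its relative in fusing myoblasts, Trim72 (MG53) gathers vesicles at the tear, and caveolin 3 (Cav3) forms caveolae and binds both dysferlin and Trim72. The dystrophin complex links the cytoskeleton to the matrix: dystrophin (Dmd), or utrophin (Utrn) at the neuromuscular junction and in young fibers, holds actin, dystroglycan (Dag1) holds laminin, and the sarcoglycans (Sgca, Sgcb) steady the complex in the membrane. Loss of dysferlin, caveolin 3, dystrophin or a sarcoglycan causes muscular dystrophy in humans.

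ChREBP binds DNA as a partner of Mlx at carbohydrate response elements, which pair E-box motifs of the type CACGTG. The 250 bases before RefSeq gene starts (GRCm38.p6) were searched for CACGTG and for the consensus of that element, and for CAGCTG, an E-box typical of myogenic factors. All 9 genes matched, with 12 starts. CACGTG was present before 1 of the 12 starts, that of Utrn, against 6.02% of 32851 starts in all. CAGCTG was present before 1, that of Cav3, against 13% of all. The consensus of the carbohydrate response element was present before 0 of the 12, against 0.0974% of all. These palindromic motifs read alike on both strands, and a match or its absence describes the letters in the window only. The windows of Dysf are shown because Dysf differed most of the 9 between genotypes on chow, that of Trim72 because it differed most between muscles and among the genes tested in C2C12 cells, and that of Utrn for its CACGTG, in capitals at position 112 counted from the first base of the window. The windows lie at chr6:84008348-84008597 (+) and chr6:84019136-84019385 (+) for the 2 starts of Dysf, at chr7:128004128-128004377 (+) for Trim72 and at chr10:12861736-12861985 (-) for Utrn. The gene models of the chow table begin further upstream in all 3 genes, so the windows fall inside those models.
Dysf start 1: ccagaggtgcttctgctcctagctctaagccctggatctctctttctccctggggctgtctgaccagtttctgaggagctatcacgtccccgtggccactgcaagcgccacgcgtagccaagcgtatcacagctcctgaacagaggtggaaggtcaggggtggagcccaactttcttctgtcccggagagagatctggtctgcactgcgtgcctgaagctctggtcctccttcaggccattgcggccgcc
Dysf start 2: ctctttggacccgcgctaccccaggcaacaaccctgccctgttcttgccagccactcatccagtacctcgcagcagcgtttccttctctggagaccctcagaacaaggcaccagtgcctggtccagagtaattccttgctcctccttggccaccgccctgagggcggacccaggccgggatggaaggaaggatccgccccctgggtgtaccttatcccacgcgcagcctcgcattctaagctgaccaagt
Trim72: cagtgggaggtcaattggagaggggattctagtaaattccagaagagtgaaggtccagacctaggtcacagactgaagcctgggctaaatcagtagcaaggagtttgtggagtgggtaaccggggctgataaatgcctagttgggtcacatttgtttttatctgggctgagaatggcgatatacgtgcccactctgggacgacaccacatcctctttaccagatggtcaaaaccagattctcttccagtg
Utrn: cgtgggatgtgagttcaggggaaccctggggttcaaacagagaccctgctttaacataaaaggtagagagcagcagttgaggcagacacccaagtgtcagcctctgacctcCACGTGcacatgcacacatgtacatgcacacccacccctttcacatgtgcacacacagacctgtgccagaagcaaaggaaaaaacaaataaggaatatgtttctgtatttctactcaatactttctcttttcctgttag

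Libraries stood apart in the stress experiment. In 12 of its 24 libraries log2 expression rose with gene length (slope 0.0797 to 0.122, set A), and in the other 12 it fell (slope -0.160 to -0.0545, set B), with the 9 genes left out of the fit. The first principal component, with 64.4% of the variance, separated the sets. Set A holds all 8 HFrD libraries, Norm F/F libraries N_WTc397 and N_WTc401 and Hypo F/F libraries H_WTc360 and H_WTc361 (the labels write WT for F/F), and set B holds every ChMKO library in Norm and Hypo together with the other 4 F/F libraries there. No label names a batch, and values within a set are given beside the results where both groups hold libraries of it. In the chow table the slope was -0.104 in SOL of F/F mouse 71 and -0.0963 in GC of F/F mouse 69, and -0.0585 to 0.0552 in the other libraries. Without the first the Dysf difference between genotypes in SOL was 0.50 (limma adjusted p = 0.0728), and without the second that in GC was 0.50 (limma adjusted p = 0.126). Mlxipl FPKM, which still counts transcripts that lack exon 8, were lower in ChMKO without overlap in GC on chow (12.5 to 18.5 against 20.4 to 30.3), Norm, Hypo and HFrD, and overlapped in SOL (30.0 to 46.1 against 43.8 to 64.1). They were 52.9 to 101 after AAV-ChREBP against 10.3 to 12.3, and 12.8 to 13.8 in OE cells against 0 to 0.02. The 24 stress libraries held 14473169 to 23460511 reads on genes, recovered from the FPKM, and Dysf was covered by 1114 to 2837 of them.

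Sgca had the highest mean of the 9 genes in every GC group, at 125 ± 15.2 FPKM (SD, n = 5) in F/F mice on chow, and Myof the lowest, at 0.850 ± 0.250 FPKM. Between them, on chow in F/F GC, lay Trim72 at 63.6 ± 6.23, Cav3 at 41.4 ± 6.57, Dag1 at 40.3 ± 4.73, Sgcb at 28.0 ± 2.82, Dysf at 10.9 ± 0.531, Dmd at 3.00 ± 0.651 and Utrn at 1.32 ± 0.310 FPKM. Cav3 and Dag1, next to each other in this order, overlapped between libraries. The muscle fiber markers summed to 37516 to 54293 FPKM in these libraries, as a check of the tissue. In C2C12 CON cells the order differed, with Myof highest at 103 ± 1.81 FPKM (SD, n = 4), then Dag1 at 88.0 ± 1.98, Sgcb at 42.0 ± 0.520 and Utrn at 33.9 ± 1.67, and with Dmd lowest at 0.117 ± 0.0236. Because that table was normalized by itself, the order within it can be read but its levels are not tested against muscle. Dmd also differed between tables of GC, from 3.00 FPKM on chow to 21.4 ± 1.28 in AAV-CON (SD, n = 5), and levels across tables were not compared further.

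Dysf, listed as gene15049 (chromosome 6, 84008314 to 84211060, plus strand of GRCm38), was higher in every ChMKO library than in every F/F library of both muscles on chow. In GC the ChMKO libraries held 15.4, 14.3, 14.8, 17.2 and 17.6 FPKM and the F/F libraries 11.4, 10.02, 10.8, 10.95 and 11.2 FPKM. The lowest ChMKO library stood above the highest F/F library, and the means were 15.8 ± 1.46 and 10.9 ± 0.531 FPKM (SD, n = 5), a ratio of 1.46. The difference was 0.50 on the log2(FPKM + 1) scale (SE 0.07, 95% interval 0.35 to 0.66), and Dysf ranked 4 of 12724 genes by p, yet its limma adjusted p over all genes was 0.0536. With a pseudocount of 0.1, or with only genes of at least 5 FPKM, that adjusted p was 0.0438 or 0.0295. With 1 library left out it was 0.0511 to 0.214.

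In SOL of the same mice the ChMKO libraries held 14.9, 13.2, 12.7, 14.4 and 14.9 FPKM and the F/F libraries 10.3, 8.78, 9.0, 10.4 and 11.1 FPKM. Again the groups did not overlap, with means of 14.003 ± 1.01 and 9.92 ± 0.983 FPKM (SD, n = 5) and a ratio of 1.41. The log2 difference was 0.46 (SE 0.08, 95% interval 0.29 to 0.63), rank 9 of 13348 genes, with a limma adjusted p of 0.158, or of 0.0728 to 0.375 with 1 library left out. The exact permutation p, two-sided, was 0.00794 in each muscle, the smallest that 5 against 5 allow, or 0.0238 adjusted over 6 comparisons of Dysf tested this way. The genotype difference of Dysf was not different between the muscles in a test of the interaction (-0.04 in SOL relative to GC, SE 0.10, limma adjusted p = 0.955), and GC and SOL share mice by their numbers (for 1 of the 5 F/F pairs only by the column number, since its SOL title gives another), so the muscles are not independent of each other.

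**Figure D1:**
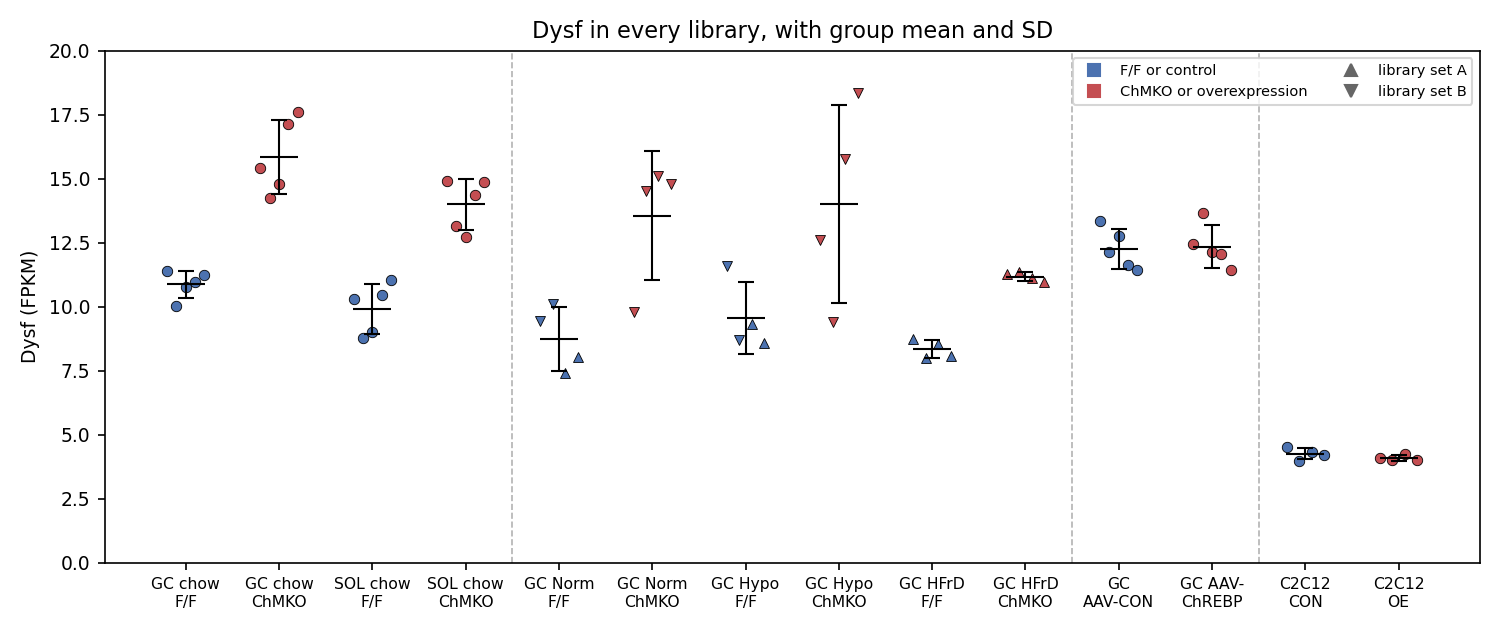
Dysf FPKM (y axis) in each of the 62 libraries by group (x axis), with the group mean and SD as bars; dashed lines part tables that were normalized separately, and triangles mark the library sets of the stress experiment. Every ChMKO library on chow lies above every F/F library of the same muscle, and the AAV and C2C12 groups overlap.

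Under stress Dysf was tested in Norm and Hypo, and the HFrD contrast, which chose it, is a description. In Norm the ChMKO libraries held 9.79, 14.5, 15.1 and 14.8 FPKM and the F/F libraries 9.42, 10.1, 7.40 and 8.03 FPKM. The ChMKO library N_KO_370 was among the F/F values and the other 3 stood above them all. The log2 difference was 0.57 (SE 0.15, limma adjusted p = 0.418, exact permutation p = 0.0571 where 0.0286 is the smallest), and with the libraries of set B alone it was 0.42 (limma adjusted p = 0.999).

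In Hypo the ChMKO libraries held 12.6, 9.41, 15.8 and 18.3 FPKM and the F/F libraries 11.6, 8.69, 9.34 and 8.60 FPKM. H_KOc333 of the ChMKO group was within the F/F range, and the other 3 were above it. The log2 difference was 0.48 (SE 0.19, limma adjusted p = 0.532, exact permutation p = 0.0571), and 0.41 within set B. On the HFrD, where all 8 libraries are of set A, ChMKO libraries held 11.3, 11.3, 11.1 and 10.95 FPKM and F/F libraries 8.73, 8.0, 8.54 and 8.09 FPKM. The groups did not overlap and the ratio of means was 1.34, a log2 difference of 0.38, with no test because this difference was used to choose the gene.

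Excess ChREBP did not come with a detectable difference of Dysf. After AAV-ChREBP the libraries held 12.5, 13.7, 12.1, 12.0 and 11.4 FPKM against 13.3, 12.1, 12.8, 11.6 and 11.45 FPKM in AAV-CON. The groups overlapped throughout, and the log2 difference was 0.01 with a 95% interval of -0.12 to 0.14 (exact permutation p = 0.865). In C2C12 cells Dysf held 4.09, 4.01, 4.24 and 4.02 FPKM in OE and 4.52, 3.99, 4.32 and 4.21 FPKM in CON. Those groups overlapped too, with a log2 difference of -0.05, a 95% interval of -0.15 to 0.06 and an exact permutation p of 0.286.

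Dysf shares its locus with Gm33024, a predicted gene on the opposite strand, and the library kit does not mark strand, so reads of the 2 genes cannot be told apart where their exons overlap. On chow Gm33024 held 1.54 ± 0.378 FPKM in GC of ChMKO and 0.788 ± 0.285 FPKM in F/F (SD, n = 5), and in SOL 0.845 ± 0.176 and 0.582 ± 0.378 FPKM. Its part in the Dysf values was not tested. Its log2 difference was 0.51 in GC (SE 0.13, limma adjusted p = 0.593) and 0.25 in SOL (SE 0.14, limma adjusted p = 0.568). Of the other genes within 2 Mb of Dysf, the 38 tested in GC were between -0.23 and 0.27 on the log2 scale between genotypes, and the 41 tested in SOL were between -0.41 and 0.25. Of each set 0 were called by limma at an adjusted p of 0.05, and 3 had an unadjusted p under 0.05. Across the 24 stress libraries the genes whose log2 level followed that of Dysf most closely, among 4498 with a mean of at least 5 FPKM, were Rapgef1 (r = 0.81), Rgcc (0.81), Dapk3 (0.80), Ddx24 (0.80) and Rrp1 (0.79). In the 20 chow libraries the same pairs had r of -0.08, 0.40, 0.32, -0.15 and -0.27, and points within a table share genotype, treatment and, under stress, the library set.

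The other 8 genes were close between genotypes on chow, and 0 of the 9 genes were called at a limma adjusted p under 0.05 in either muscle (1 at an unadjusted p under 0.05 in GC and 2 in SOL). Over all genes 0.0236% were called in GC and 0.0225% in SOL. Groups did not overlap for 1 of the 9 in each muscle, Dysf, against 0.857% of all genes in GC and 2.05% in SOL. The median log2 difference of the 9 was 0.02 in GC and 0.01 in SOL, beside 0.01 and -0.02 over all genes tested. In GC the other 8 differed by -0.12 to 0.12, with the lowest value for Utrn, at 1.12 ± 0.135 FPKM in ChMKO and 1.32 ± 0.310 FPKM in F/F (-0.12, SE 0.10, limma adjusted p = 1.00), a value of -0.06 without F/F mouse 58 and -0.08 without ChMKO mouse 61. In SOL they differed by -0.13 (Cav3, SE 0.08, limma adjusted p = 0.568) to 0.27 (Dag1), and the second gene under an unadjusted p of 0.05 was Dmd (0.19, limma adjusted p = 0.479). The wide interval of Dag1, -0.25 to 0.79, came with 1 F/F library, mouse 71, at 16.7 FPKM, while the other 4 held 39.9 to 47.3 FPKM. That library also had the lowest length slope of the table, and the part of the slope in its value was not tested. None of the 12 marker lists, for fiber types and for the other cells a muscle can hold, had a gene called by limma between genotypes on chow (5 of 59 genes in GC and 6 of 62 in SOL at an unadjusted p under 0.05). In GC the fibroblast list summed to 211 to 543 FPKM in ChMKO and 114 to 304 FPKM in F/F, and the macrophage and leukocyte list to 34.5 to 71.9 and 24.2 to 45.0 FPKM. The Schwann cell list lay the other way, at 13.008 to 32.6 and 17.6 to 432 FPKM (median log2 difference -0.96 in GC and -0.47 in SOL), as did the slow-twitch list (-0.65 and -0.23). Their part in the Dysf difference was not tested, and in bulk muscle fewer cells of a type and less RNA per cell cannot be told apart.

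**Figure D2:**
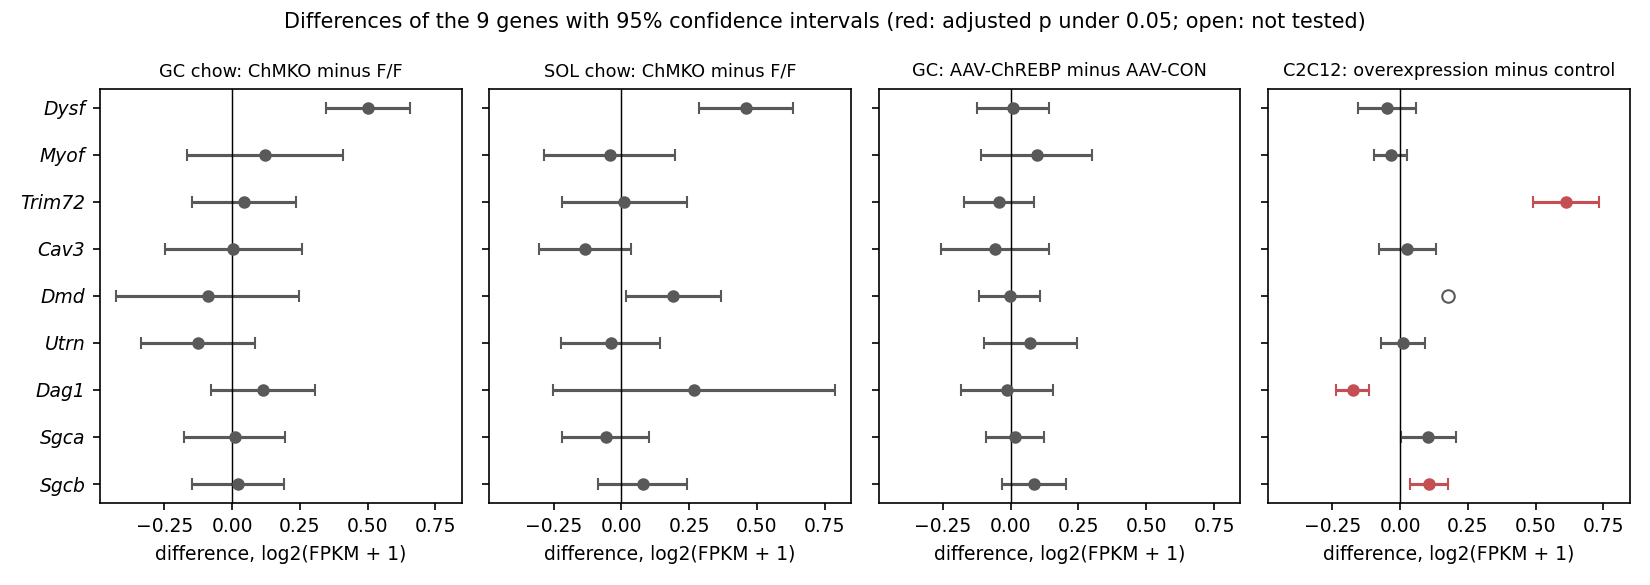
Log2 differences of the 9 genes (x axis, log2(FPKM + 1)) with 95% confidence intervals from limma in the 4 comparisons named above the panels; red marks an adjusted p under 0.05 and the open circle a gene under the level tested. Dysf stands apart at 0.50 and 0.46 between genotypes in GC and SOL and at 0.01 and -0.05 under excess ChREBP, where Trim72 is at 0.61 in C2C12 cells.

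Between muscles Trim72 differed most. Trim72 (gene19607, chromosome 7, 128003424 to 128011393) held 130, 157, 148, 167 and 113 FPKM in SOL of F/F mice and 61.1, 69.4, 61.6, 70.4 and 55.6 FPKM in GC. Every SOL library was above every GC library, with a ratio of means of 2.25. On the log2 scale it differed by 1.15 (SE 0.12, limma adjusted p = 2.32e-05). In ChMKO mice SOL held 156, 146, 139, 130 and 144 FPKM and GC 63.4, 56.7, 66.4, 74.3 and 67.3 FPKM. Again no GC library reached the SOL values, with a ratio of 2.18 and a log2 difference of 1.12 (SE 0.07, limma adjusted p = 2.70e-07).

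Utrn (gene24587, chromosome 10, 12382187 to 12869689) was also higher in SOL. F/F libraries held 2.05, 2.07, 2.40, 2.67 and 2.74 FPKM in SOL and 1.10, 1.75, 0.975, 1.502 and 1.29 FPKM in GC, without overlap. They differed by 0.55 on the log2 scale (SE 0.11, limma adjusted p = 0.00143), and in ChMKO mice it was 0.63 (SE 0.07, limma adjusted p = 1.73e-05), from 2.29 ± 0.239 against 1.12 ± 0.135 FPKM (SD, n = 5).

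Dmd (gene44344, chromosome X, 82814664 to 85205050) was called in ChMKO mice, where SOL held 4.05, 4.62, 4.05, 4.28 and 4.61 FPKM and GC 3.87, 3.38, 2.34, 1.96 and 2.39 FPKM. Those groups did not overlap and differed by 0.51 on the log2 scale (SE 0.13, limma adjusted p = 0.00430). In F/F mice Dmd differed by 0.23 and was not called (limma adjusted p = 0.127), with SOL at 3.09 to 4.21 and GC at 2.14 to 3.76 FPKM. A test of the difference between genotypes in this muscle effect gave 0.28 (SE 0.17, limma adjusted p = 0.824), so the muscles were not shown to differ more in 1 genotype.

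Myof (gene42727, chromosome 19, 37899036 to 38043577) was called in F/F mice, with SOL at 1.10, 1.67, 1.81, 1.62 and 0.983 FPKM and GC at 0.912, 1.10, 0.442, 0.969 and 0.823 FPKM. The groups overlapped, and the log2 difference was 0.39 (SE 0.13, limma adjusted p = 0.0246). Without SOL library 58, 59 or 70 the adjusted p was 0.0581, 0.0612 or 0.0558, so the call rests on each of them. In ChMKO mice Myof differed by 0.23 (limma adjusted p = 0.102), and the interaction was -0.17 (limma adjusted p = 0.885).

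Sgca (gene28500, chromosome 11, 94962777 to 94976327) fell in ChMKO mice, from 126, 116, 130, 121 and 135 FPKM in GC to 123, 111, 104, 101 and 103 FPKM in SOL. The ranges overlapped, and the log2 difference was -0.21 (SE 0.07, limma adjusted p = 0.0159). Among F/F mice Sgca differed by -0.15 (limma adjusted p = 0.204) and Sgcb, the lowest of the 9 there, by -0.17 (SE 0.09, limma adjusted p = 0.152), or by -0.11 without SOL library 71. Dysf, Cav3 and Dag1 differed by -0.15 to 0.14 in F/F mice and by -0.17 to 0.00 in ChMKO mice without a call. With mouse as a block Dysf was also called in ChMKO mice, at -0.17 (limma adjusted p = 0.0405), although same-numbered GC and SOL libraries of ChMKO mice deviated together only weakly (r 0.0210 to 0.0492). Dysf was lower in SOL than in the paired GC library of every mouse of both genotypes, while in F/F mice the block called 0 members lower.

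In F/F mice 3 of the 9 genes were called higher and 0 lower in SOL, against 37.9% and 12.5% of all genes (50.4% in all). In ChMKO mice 3 were called higher and 1 lower, against 41% and 16.9% (57.9% in all). Groups did not overlap for 2 of the 9 in F/F mice (35.9% of all genes) and for 3 of the 9 in ChMKO mice (43%). The median log2 difference of the 9 was 0.14 in F/F and 0.00 in ChMKO mice, beside 0.18 and 0.15 over all genes tested. Since the median of all genes was shifted, libraries were also rescaled by the median of ratios, which moved the share of higher genes among all calls from 75.1% to 46.8% in F/F and from 70.7% to 47.9% in ChMKO mice. After rescaling Trim72 and Utrn kept their calls (0.89 and 0.38 in F/F, 0.92 and 0.51 in ChMKO), as did Dmd in ChMKO mice (0.36). Dysf, Sgca and Sgcb were then called lower in SOL in both genotypes, at -0.36, -0.40 and -0.42 in F/F mice and -0.36, -0.42 and -0.31 in ChMKO mice, and Dag1 at -0.19 in ChMKO mice, while Myof was no longer called in F/F mice (0.26, limma adjusted p = 0.0949). That made 2 members higher and 3 lower in F/F mice, beside 2737 and 3108 of all 13192 genes. In ChMKO mice 3 were higher and 4 lower, beside 3370 and 3666 of all 13027 genes.

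**Figure D3:**
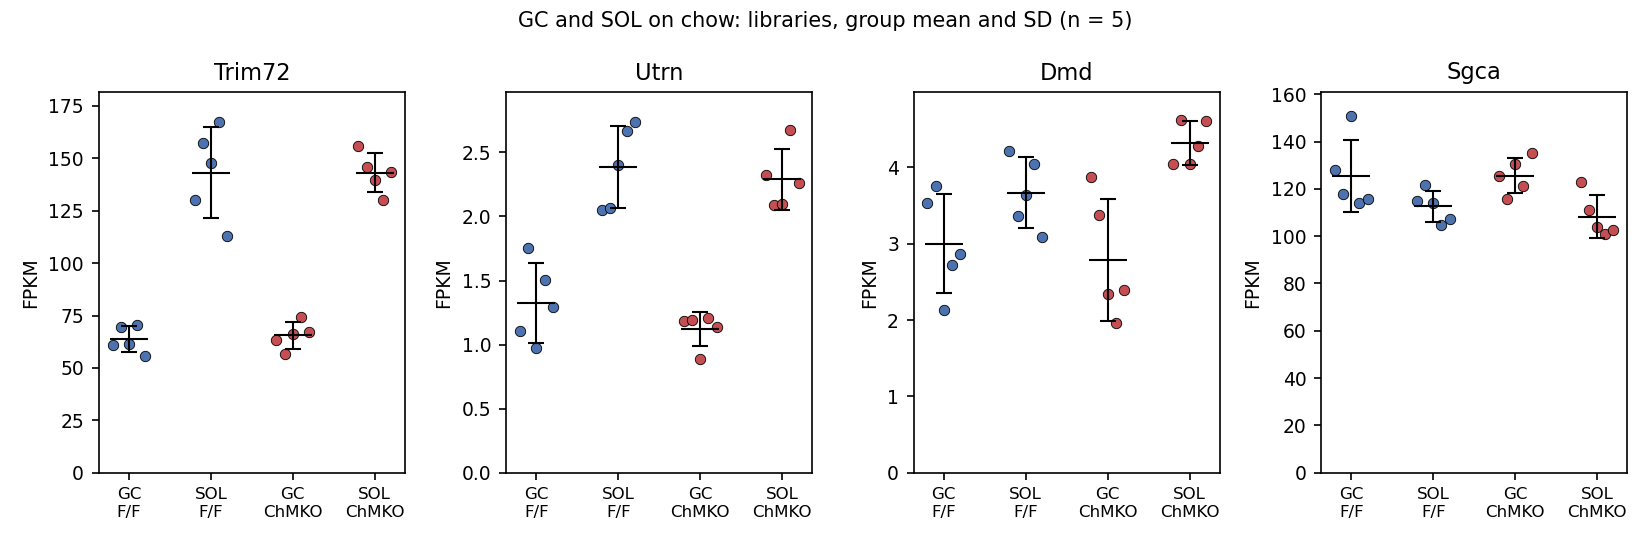
FPKM (y axis) of Trim72, Utrn, Dmd and Sgca by muscle and genotype on chow (x axis: GC or SOL, F/F or ChMKO), 1 point per library with the group mean and SD (n = 5). SOL libraries of Trim72 lie at 113 to 167 FPKM and GC libraries at 55.6 to 74.3 FPKM in both genotypes together.

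Markers of other fibers and cells moved with these muscle differences. In SOL all 5 slow-twitch markers tested were called higher in both genotypes, with summed FPKM of 3.73 to 153 in GC and 6269 to 10219 in SOL of F/F mice. The endothelial list summed to 45.0 to 82.6 FPKM in GC and 118 to 212 in SOL of F/F mice, with 6 of 6 genes called higher, and the smooth muscle and pericyte list to 75.6 to 124 against 166 to 267, with 5 of 5. Of the neuromuscular junction list 1 of 6 genes was called higher and 2 lower in F/F mice, and 4 and 2 in ChMKO mice. Of the Schwann cell list 0 of 5 were called by limma in F/F mice (0 at an unadjusted p under 0.05) and 3 of 4 higher in ChMKO mice. The part of these lists in the results for Trim72, Utrn, Dmd, Myof and Sgca was not tested.

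In the stress experiment Dmd followed the library set. Dmd held 2.49, 2.41, 9.64 and 9.74 FPKM in Norm F/F libraries N_WTc368, N_WTc369, N_WTc397 and N_WTc401, and 1.77, 2.24, 10.6 and 10.5 FPKM in Hypo F/F libraries H_WTc341, H_WTc348, H_WTc360 and H_WTc361. In both groups the last pair, of set A, stood far above the first pair, of set B. ChMKO mice, all in set B, held 2.06, 2.39, 2.01 and 2.06 FPKM in Norm and 2.29, 2.11, 1.53 and 2.2001 FPKM in Hypo. Over the 24 libraries Dmd was 10.7 ± 0.740 FPKM in set A and 2.13 ± 0.275 FPKM in set B (SD, n = 12), with no overlap.

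Set means of the other genes also differed, although the sets hold unlike groups (all HFrD libraries in 1, and all ChMKO libraries of Norm and Hypo in the other). Cav3 (gene15427, chromosome 6, 112459505 to 112472872) was 23.2 ± 5.59 in set A and 41.0 ± 4.32 FPKM in set B, Sgca 67.2 ± 3.04 and 95.4 ± 6.06, and Dag1 (gene24118, chromosome 9, 108204861 to 108263958) 41.9 ± 3.64 and 62.4 ± 7.36. These 3 and Dysf (9.29 ± 1.48 and 12.5 ± 3.13) were lower in set A, and Dmd, Utrn (3.65 ± 0.166 and 3.01 ± 0.416) and Sgcb (38.2 ± 3.47 and 31.9 ± 3.10) were higher. The libraries of the sets overlapped in Dysf, Utrn, Sgcb, Myof and Trim72, and did not in Cav3, Sgca and Dag1. The direction did not follow transcript length in all 9 genes: Dmd, at 23801 bases the longest, was higher in set A and Cav3, at 1157 bases the shortest, lower, but Myof, at 12603 bases, was lower in set A (0.984 and 1.29 FPKM) and Sgcb, at 4052 bases, higher. The part of the set in each difference below was not tested beyond the values given within a set.

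**Figure D4:**
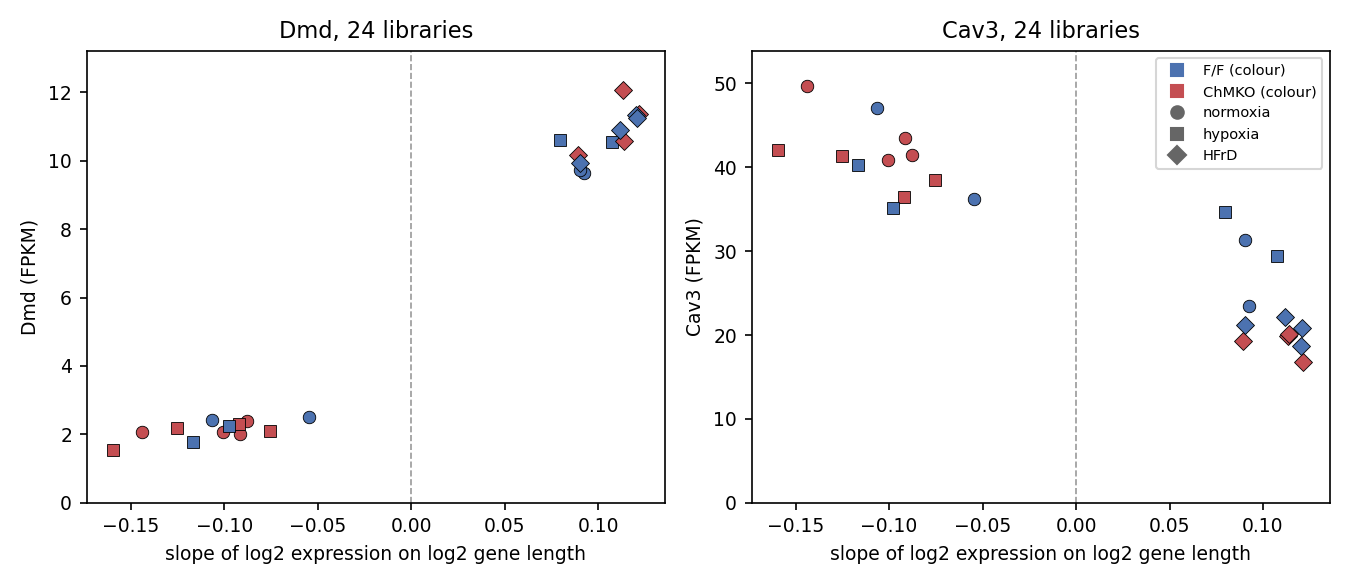
FPKM of Dmd (left) and Cav3 (right) in the 24 GC libraries of the stress experiment against each library's slope of log2 expression on log2 gene length (x axis), coloured by genotype and shaped by treatment. Dmd is at 1.53 to 2.49 FPKM left of 0 (set B) and at 9.64 to 12.1 FPKM right of it (set A), and Cav3 is lower to the right.

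Between genotypes in Norm 0 of the 9 genes were called by limma (2 at an unadjusted p under 0.05), as were 0.00922% of all genes. Dmd was the 1 gene whose groups did not overlap (4.96% of all genes), at -0.96 in ChMKO (SE 0.39, limma adjusted p = 0.418). Against the 2 F/F libraries of set B alone its difference was -0.14 (limma adjusted p = 0.999). In Hypo 0 of 9 were called (1 at an unadjusted p under 0.05) beside 0.00941% of all genes, and 0 of 9 did not overlap beside 2.03%. Dmd, again the lowest at -0.96 (SE 0.46, limma adjusted p = 0.532), was at 0.01 within set B, and at -0.64 without H_WTc360 or H_WTc361. The remaining 7 genes differed by -0.19 to 0.37 in Norm and by -0.20 to 0.38 in Hypo, ranges that mix the sets of F/F libraries. In Norm the highest was Cav3, with a mean of 43.9 FPKM in ChMKO beside 41.7 in F/F libraries of set B and 27.4 in those of set A, and the lowest Utrn, at 2.89 beside 3.34 and 3.56 FPKM. In Hypo the highest was Trim72, at 74.4 FPKM in ChMKO beside 64.6 in set B and 49.6 in set A of F/F mice, and the lowest Sgcb, at 31.0 beside 28.7 and 44.7 FPKM. Sgcb in ChMKO mice was thus above the F/F mean of its own set and below that of the other. The median of the 9 was 0.13 in Norm and 0.18 in Hypo, beside 0.05 and 0.08 over all genes. Of the marker lists 0 of 59 genes were called by limma in Norm (5 at an unadjusted p under 0.05) and 0 of 58 in Hypo (4). The Schwann cell list had a median log2 difference of 0.74 in Hypo and -0.21 in Norm, and the macrophage and leukocyte list 0.64 and 0.05. The part of these markers in the members' differences was not tested.

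On the HFrD, where the rule used the contrast, the other 8 genes lay between -0.12 and 0.03 on the log2 scale and all of them overlapped between genotypes. Dysf was thus 1 of 9 without overlap, beside 4.47% of all genes, a count that the choice of Dysf fixes. Cav3 held 16.8, 19.9, 20.1 and 19.4 FPKM in ChMKO and 18.7, 20.9, 22.1 and 21.2 FPKM in F/F mice, the lowest log2 difference at -0.12, or -0.06 without KO_C291. Trim72, Dmd, Utrn, Dag1, Sgca and Myof differed by -0.04 to 0.03, and Sgcb by -0.09. The median of the 9 was -0.02 and that of all genes -0.01.

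Hypoxia was compared with normoxia in each genotype. In F/F mice 0 of 9 genes were called by limma (0 at an unadjusted p under 0.05) and 0% of all genes (411 of 10739 unadjusted), and all 9 overlapped, beside 3.04% of all genes without overlap. Trim72 had the highest value at 0.22 (SE 0.19) and Myof the lowest at -0.11 (SE 0.12), each with a limma adjusted p of 1.00, and they were 0.21 and -0.11 within set A and 0.22 and -0.10 within set B. Without H_WTc341 these values were 0.05 and -0.18, and without N_WTc369 0.32 and -0.03. In ChMKO mice Trim72 held 67.2, 54.1, 85.1 and 91.3 FPKM in Hypo and 52.0, 52.6, 53.7 and 52.2 FPKM in Norm. Its groups did not overlap, the only such pair of the 9 beside 9.81% of all genes, although H_KOc333 stood just above the Norm libraries. The log2 difference was 0.46 (SE 0.15, limma adjusted p = 0.173), so 0 of 9 were called (1 at an unadjusted p under 0.05) beside 0.89% of all genes, and without H_KOc333 it was 0.60 (limma adjusted p = 0.0393). Cav3 was lowest at -0.14 (SE 0.09, limma adjusted p = 0.509), or -0.08 without N_KO_380. The median of the 9 was 0.05 in F/F and -0.02 in ChMKO mice, beside -0.06 and -0.03 over all genes. No interaction of genotype with hypoxia was called by limma in any gene (132 of 10750 at an unadjusted p under 0.05), and that of Trim72 was 0.25 (SE 0.25, limma adjusted p = 1.00). Slow-twitch markers had a median log2 difference of 2.28 in F/F and 2.65 in ChMKO mice under hypoxia, with 0 of 4 called by limma and 4 of 4 at an unadjusted p under 0.05 in each. Their sums were 92.3 to 517 FPKM in Hypo and 15.8 to 123 FPKM in Norm of F/F mice, and 70.1 to 565 and 6.31 to 125 FPKM in ChMKO mice, and their part in the Trim72 values was not tested.

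HFrD libraries were set beside the Norm libraries, which are the untreated ones of that table and come from the hypoxia experiment. Hypoxia lasted 2 weeks and the diet 3 months from the same range of starting ages. Age and experiment thus cannot be told apart from diet in either genotype, also within a library set. In F/F mice 0 of the 8 genes tested were called by limma (3 at an unadjusted p under 0.05) and 0% of all genes (2531 of 10706 at an unadjusted p under 0.05). The groups of 3 did not overlap, beside 16.2% of all genes: Dmd at 0.96 (SE 0.39, limma adjusted p = 0.197), Cav3 at -0.67 (SE 0.18, limma adjusted p = 0.155) and Myof at -0.22 (SE 0.09, limma adjusted p = 0.188). Against the 2 Norm libraries of set A alone these differences were 0.15, -0.38 and -0.12, none of them called. These 2 libraries lie outside the HFrD range for all 3 genes, which follows from the whole groups not overlapping. Between the whole groups the median of all genes was -0.10, and 0.01 after rescaling, with 0 members called either way. In ChMKO mice the HFrD libraries are all of set A and the Norm libraries all of set B, so diet and library set cannot be told apart. There 64% of all genes were called, 19.4% higher and 44.6% lower, and of the 8 members tested 2 were called higher and 3 lower. Dmd rose from 2.01 to 2.39 FPKM in Norm to 10.2 to 12.1 FPKM (1.94, SE 0.07, limma adjusted p = 6.02e-08) and Utrn by 0.25 (SE 0.06, limma adjusted p = 0.00715). Cav3 fell from 40.9 to 49.7 FPKM to 16.8 to 20.1 FPKM (-1.16, SE 0.08, limma adjusted p = 2.88e-06), Dag1 by 0.53 (SE 0.06, limma adjusted p = 0.000103) and Sgca by 0.49 (SE 0.06, limma adjusted p = 0.000123). These 5 did not overlap, beside 57.2% of all genes, and the median of the 9 was -0.20 beside -0.17 over all genes. Rescaling by the median of ratios brought the median of all genes to -0.03 and the share of higher genes among all calls from 30.3% to 50.6%, and Sgcb was then also called, at 0.28 (limma adjusted p = 0.00521). Of the members 3 were then higher and 3 lower, beside 2919 and 2851 of all 10717 genes. Dysf, which is not tested here, was at -0.05 in F/F and -0.24 in ChMKO mice. Markers of other cells moved with these values: in ChMKO mice 5 of 6 fibroblast genes (median -1.46), 6 of 6 endothelial genes (-0.54) and 4 of 4 macrophage and leukocyte genes (-0.64) were called lower, as were 3 of 3 genes of immature fibers (-1.09), 4 of 6 of the muscle fiber list (-0.37) and 4 of 6 of the neuromuscular junction list (-0.48, with 1 higher). Slow-twitch markers lay the other way, with a median of 1.84 in F/F mice (0 of 4 called by limma, 4 at an unadjusted p under 0.05) and 1.86 in ChMKO mice (1 of 4 called higher), and sums of 131 to 170.1 and 52.4 to 226 FPKM on the HFrD. In F/F mice 0 of 6 fibroblast genes were called by limma, with 6 of 6 at an unadjusted p under 0.05 (median -1.17). The part of these markers in the members' differences was not tested.

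In GC injected with AAV-ChREBP 0 of the 9 genes were called by limma (0 at an unadjusted p under 0.05) beside 0.00906% of all genes, and the groups of all 9 overlapped, beside 0.58% of all genes without overlap. Log2 differences ran from -0.06 for Cav3 (SE 0.09) to 0.10 for Myof (SE 0.09), each with a limma adjusted p of 1.00, and the median was 0.01 beside 0.02 over all genes. Myof held 1.96, 1.88, 1.85, 1.92 and 1.303 FPKM after AAV-ChREBP and 1.40, 1.83, 1.498, 1.32 and 1.99 FPKM in AAV-CON. Mouse 8 was the lowest of its group and the other 4 were within the AAV-CON range. Without mouse 8 of AAV-ChREBP the difference of Myof was 0.16, and without mouse 7 or 8 of AAV-CON 0.06 or 0.15. All 95% intervals of the 9, without pairing, lay within -0.26 and 0.30. Sgcb held 36.2, 36.9, 37.9, 35.8 and 32.5 FPKM after AAV-ChREBP and 35.2, 34.1, 34.9, 32.6 and 31.6 FPKM in AAV-CON, in the order of the shared numbers. Each AAV-ChREBP library was above its same-numbered AAV-CON library, although the groups overlapped. With the number as a block Sgcb differed by 0.09 (SE 0.04, limma adjusted p = 0.853), and 0 of the 9 genes were called, beside 1 of 11033 genes. The labels do not say what libraries with the same number share.

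Of the 8 genes tested in C2C12 cells, without Dmd for its low level, Trim72 differed most. It held 19.0, 19.4, 21.0 and 18.8 FPKM in OE and 13.2, 11.2, 12.1 and 13.4 FPKM in CON. All OE libraries were above all CON libraries, with means of 19.5 ± 0.992 and 12.5 ± 1.00 FPKM (SD, n = 4) and a ratio of 1.57. The log2 difference was 0.61 (SE 0.06, limma adjusted p = 1.32e-05).

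Dag1 fell, with 80.2, 77.0, 76.2 and 78.3 FPKM in OE and 86.5, 87.0, 90.9 and 87.7 FPKM in CON. Its groups did not overlap either, at a ratio of 0.885 and a log2 difference of -0.17 (SE 0.03, limma adjusted p = 0.000765). Sgcb (gene11986, chromosome 5, 73632749 to 73647731) held 45.8, 45.0, 43.1 and 47.5 FPKM in OE and 41.8, 41.5, 42.7 and 41.9 FPKM in CON. The OE libraries were all higher, by 0.11 on the log2 scale (SE 0.03, limma adjusted p = 0.0257). The adjusted p of Sgcb was 0.0535 to 0.0762 when OE 1, OE 4, CON 1 or CON 2 was left out.

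The other C2C12 genes were not called. Myof held 97.5 to 103 FPKM in OE and 101 to 105 FPKM in CON, Utrn 33.4 to 35.1 and 31.8 to 35.8 FPKM, Cav3 4.36 to 4.80 and 4.35 to 4.61 FPKM, and Sgca 17.7 to 19.7 and 16.3 to 18.4 FPKM. All 4 overlapped, and Sgca had a log2 difference of 0.10 (limma adjusted p = 0.108). Dmd was under the level tested, at 0.24, 0.27, 0.15 and 0.41 FPKM in OE and 0.15, 0.12, 0.10 and 0.10 FPKM in CON, values near the rounding of that table. Thus 3 of the 8 genes tested were called, 2 higher and 1 lower, beside 30.5% of all genes (16.3% higher and 14.1% lower), and 3 of the 8 did not overlap beside 31.3%. The median of the 9 was 0.03 beside 0.00 over all genes.

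**Figure D5:**
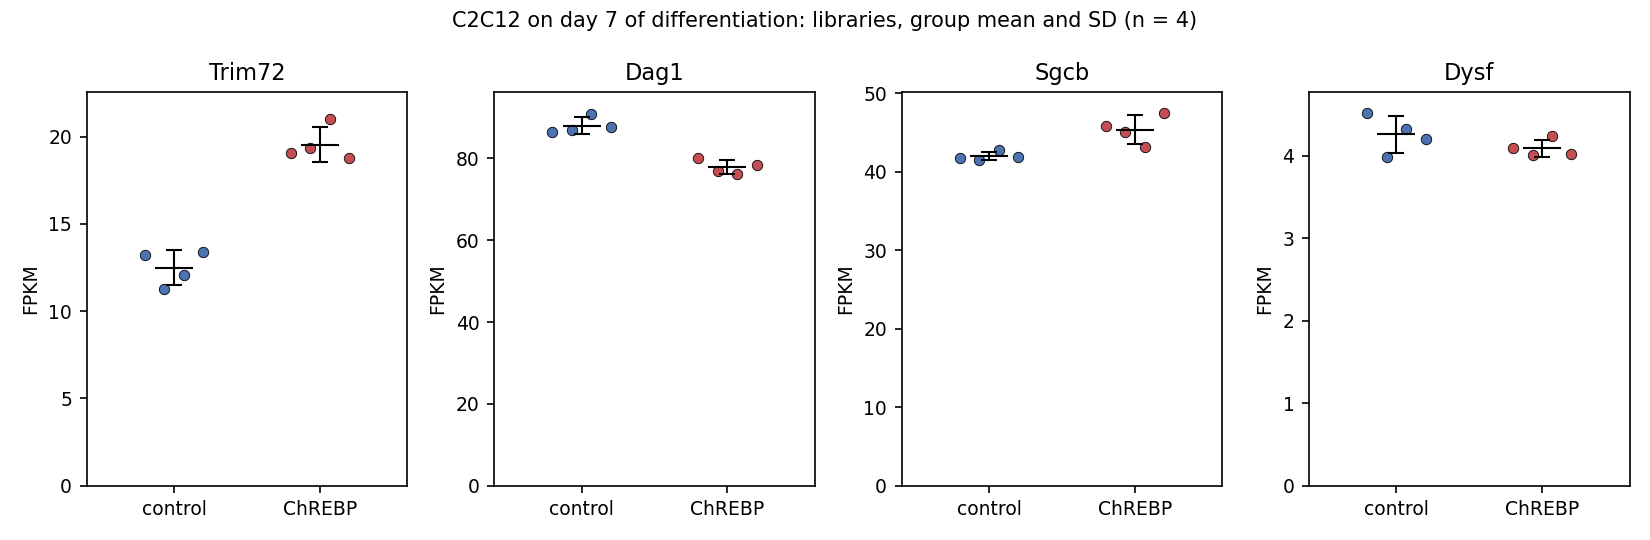
FPKM (y axis) of Trim72, Dag1, Sgcb and Dysf in C2C12 cells with the empty vector (control) or ChREBP, 1 point per library with the group mean and SD (n = 4). Trim72 lies at 18.8 to 21.0 FPKM with ChREBP and 11.2 to 13.4 FPKM without, and Dysf overlaps.

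Markers moved in these cells as well. The muscle fiber list summed to 1195 to 1237 FPKM in OE and 1015 to 1068 FPKM in CON, with 4 of 6 genes called higher, and the list of immature fibers to 350.2 to 366 against 254 to 274 FPKM, with 5 of 8 higher and 1 lower. The slow-twitch list summed to 547 to 585 against 393 to 430.1 FPKM, with 4 of 4 called higher, and the smooth muscle and pericyte list to 746 to 768 against 447 to 472 FPKM, with 2 of 3 higher and 1 lower (median 0.65). The fibroblast list summed to 3085 to 3287 against 3412 to 3559 FPKM, with 5 of 6 called lower. Adipocyte markers summed to 0 to 0.06 FPKM and endothelial markers to 0.32 to 0.64 FPKM. The part of these shifts in the results for Trim72, Dag1 and Sgcb was not tested.

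The wider lists of membrane repair and dystrophin complex genes held 80 genes besides the 9 in the chow table. Of those tested, 0 were called by limma between genotypes on chow, with 4 in GC and 5 in SOL at an unadjusted p under 0.05. Likewise 0 were called between genotypes in Norm (8 unadjusted) and Hypo (3), after AAV-ChREBP (1), and in F/F mice under hypoxia (2) or the HFrD (19). Over all genes the unadjusted counts in these comparisons were 589 of 12724 in GC and 1300 of 13348 in SOL on chow, 1207 of 10847 in Norm, 560 of 10627 in Hypo, 319 of 11033 after AAV-ChREBP, and 411 of 10739 and 2531 of 10706 in F/F mice under hypoxia and on the HFrD. In SOL relative to GC 31 of 73 were called higher and 11 lower in F/F mice, and 33 and 19 of 74 in ChMKO mice, with medians of 0.16 and 0.13. Over all genes 37.9% and 12.5% were called in F/F and 41% and 16.9% in ChMKO mice, with medians of 0.18 and 0.15 that rescaling removed. Among F/F mice the membrane repair partners, Trim72 included, had 17 higher and 4 lower of 31, the caveolae list with Cav3 5 and 0 of 7, and the laminin and integrin anchors 7 and 0 of 12. Dystrophin and its cytoplasmic partners had 1 higher and 3 lower of 8, dystroglycan and its glycosylation 4 and 4 of 15, the ferlins 1 and 0 of 4, and the sarcoglycans and sarcospan 0 of 6 by limma (0 at an unadjusted p under 0.05). In ChMKO mice the same lists had 19 higher and 6 lower of 31, 5 and 0 of 7, 5 and 2 of 12, 2 and 5 of 9, 5 and 6 of 15, 0 and 0 of 4 by limma (1 unadjusted) and 1 and 1 of 6. Anxa4, an annexin that binds membranes at sites of injury, was at 11.3 and 4.25 FPKM in SOL and GC of F/F mice (1.23, limma adjusted p = 4.67e-06), and Cav1, the caveolin of non-muscle cells, at 83.9 and 39.5 FPKM (1.06, limma adjusted p = 0.000346). Nos1, the nitric oxide synthase bound to the dystrophin complex, was lower at 4.09 against 11.3 FPKM (-1.32, limma adjusted p = 0.000656), and Ano5, a phospholipid scramblase of the same repair process, at 8.01 against 17.4 FPKM (-1.05, limma adjusted p = 0.000271).

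In C2C12 cells 10 of the 70 list genes tested were called higher and 12 lower, with a median of -0.02, beside 16.3% and 14.1% of all genes. Cav1 rose from 108 to 144 FPKM (0.41, limma adjusted p = 3.79e-06). In ChMKO mice on the HFrD relative to Norm 7 of 72 were called higher and 44 lower, beside 19.4% and 44.6% of all genes, across the library sets and before the rescaling that moved the split of all calls. In ChMKO mice under hypoxia 1 of the 71 list genes tested was called, Anxa7, at 14.2 against 24.6 FPKM (-0.77, limma adjusted p = 0.0279), beside 0.89% of all genes.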

How the data were processed

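RNA was extracted with TRIzol, libraries were made with a NEBNext Ultra kit and sequenced on a NovaSeq. The submitters' processing notes name fastp 0.18.0, Bowtie2 2.2.8, HISAT2 2.1.0, StringTie 1.3.1, RSEM and GRCm39. The authors deposited FPKM in 4 tables. The AAV and C2C12 tables do not name their unit and were read as FPKM from their values, and their depth is unknown. Positions are those of the chow table (GRCm38). The members and the gene and marker lists were chosen with earlier results of these data known. limma 3.58.1 (R 4.3.3, trend) was fitted to log2(FPKM + 1), so folds of low genes are understated, over genes whose mean reached 0.5 FPKM in the compared libraries, with Benjamini-Hochberg adjustment over all genes and a call at 0.05. Statistics were printed for members that were called, whose groups did not overlap or that had the largest rise or fall, and for some others beside them. At most 4 called list genes were named per direction and comparison, by size of change, and the 5 genes most like Dysf by r. Reads were recovered from the stress table (100% of values within 0.02 of a whole number) and tested with limma voom as an alternative. In the chow table the relative depth was 95.1% to 115% of the median. Within groups libraries correlated at 0.942 to 0.998, and no pair was identical. The fits were tested on simulated data. GC and SOL with 1 mouse number were taken as pairs, from the titles (1 of 5 F/F pairs from its column name, whose number differs from the title), with r of -0.0169 to 0.322 in F/F and 0.0210 to 0.0492 in ChMKO mice, and AAV numbers as pairs because same-numbered libraries deviated together (r 0.212 to 0.489). Among both the muscle and the AAV pairs, not every library was most like its own number. No label says what same-numbered AAV libraries share. Other alternatives were a pseudocount of 0.1, other filters, rescaling by the median of ratios and leaving out each library. The library-set values were added after the data were seen. Figures were drawn with matplotlib 3.10.9 in Python 3.11.15.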

Additional observations from a re-analysis of the deposited data

Results flagged for a closer look

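In 11 of 126 checks, of 9 genes in 14 groups that share libraries, 1 library lay further from the rest of its group than Dixon's 95% limit for 4 or 5 samples, where chance alone gives about 1 in 20. On chow these were Dag1 in SOL of F/F mouse 71, at 16.7 FPKM with the nearest library at 39.9, and Utrn in GC of ChMKO mouse 61, at 0.884 FPKM with the nearest at 1.13. In normoxia ChMKO library N_KO_370 was low in Dysf, at 9.79 FPKM with the nearest at 14.5, and high in Sgcb, at 37.6 FPKM with the nearest at 32.0, and N_KO_374 was high in Dmd, at 2.39 FPKM with the nearest at 2.06. In hypoxia F/F library H_WTc341 was high in Trim72, at 79.5 FPKM with the nearest at 51.0, and ChMKO library H_KOc345 in Utrn, at 3.78 FPKM with the nearest at 2.91. On the HFrD F/F library WT_C292 was high in Trim72, at 51.9 FPKM with the nearest at 47.7, and Sgca was low in F/F library WT_C294, at 61.1 FPKM with the nearest at 67.3, and in ChMKO library KO_C299, at 63.9 FPKM with the nearest at 68.0. After AAV-ChREBP mouse 8 was low in Myof, at 1.303 FPKM with the nearest at 1.85.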

How the results depend on the processing

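Of the recomputed counts of called or non-overlapping members, 178 stayed within 1.5 times the value reported and 11 did not. Of the recomputed differences of single members 475 kept direction and call, 10 lost a call, 4 gained one and 3 reversed. Between genotypes in GC on chow 1 of 9 members, Dysf, was called with a pseudocount of 0.1 and 1 with a filter of 5 FPKM, and its adjusted p in limma was 0.0511 to 0.214 when 1 library was left out. In SOL relative to GC the filter of 5 FPKM, which leaves fewer members, gave 1 call in F/F and 2 in ChMKO mice, and the share of all genes at that filter is not given. Rescaling of SOL and GC gave 5 and 7. Beside them 2737 genes were called higher and 3108 lower of 13192 in F/F mice, and 3370 and 3666 of 13027 in ChMKO mice. Leaving out 1 library gave 2 to 4 and 4 to 5 calls there, 0 to 1 in ChMKO mice under hypoxia (1 without H_KOc333), and 1 to 2 members without overlap between genotypes on the HFrD (2 without KO_C291, KO_C309, WT_C292 or WT_C301). Dmd between genotypes in hypoxia reversed to 0.0102 within set B and to 0.0102 with the set as a covariate. These are the same estimate, because all ChMKO libraries there are of set B, and not separate checks. Cav3 after AAV-ChREBP ranged from -0.104 to 0.0121 with 1 library left out, reversed without AAV-ChREBP 4. The cause was not tested. With the replicate number as a block 3 members were called between muscles in F/F mice, 5 in ChMKO mice, 0 after AAV-ChREBP and 3 in C2C12 cells. Over all genes the block called 4869 higher and 1598 lower of 13235 in F/F and 5161 and 2105 of 13080 in ChMKO mice. It called 1 of 11033 after AAV-ChREBP, and 1807 higher and 1550 lower of 11972 in C2C12 cells. With the mouse whose SOL title and column number differ left out, Myof in F/F mice had an adjusted p of 0.0653 in limma. C2C12 libraries share only a number (r -0.0939 to 0.176 between same-numbered libraries, and not every library was most like its own number). The voom test on recovered reads changed no call of a member. Depth limits Myof most under stress, with 184 to 388 reads a library.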
